A study of Mus musculus with 8 samples.

Results

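The genes described here are Fc receptors and Toll-like receptors of innate immune cells, with a co-receptor and an adaptor of the Toll-like receptors. They are 10 genes, Fcer1g, Fcgr1, Fcgr2b, Fcgr3, Tlr1, Tlr2, Tlr4, Tlr7, Cd14 and Myd88, and were taken as all probes whose annotated symbol is one of these names. They had 13 of the 25697 probes on an Illumina bead array, which covers 16593 named genes. RNA came from the tibialis anterior, the muscle along the shin, of male C57BL/6 mice aged 8 weeks. In the p21 group the muscles had been transfected with a p21 plasmid, and in the control group with a control plasmid, in each case 7 days before they were taken. There were 4 arrays per group. p21, encoded by Cdkn1a, blocks cyclin-dependent kinases, and the comparison asks how muscle transcripts differ when it is overexpressed. The labels do not name the promoter of either plasmid. They describe the muscles as bilateral without tying arrays to animals, so p-values here rest on the spread between arrays alone, which may be technical.

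Fc receptors bind the constant part of antibodies. The activating receptors Fcgr1 and Fcgr3 signal through the gamma chain encoded by Fcer1g, whose tail carries an activation motif (ITAM) that recruits the kinase Syk, while Fcgr2b carries an inhibitory motif of its own and recruits phosphatases. Toll-like receptors bind microbial molecules and some products of damaged cells. Tlr2, paired with Tlr1 or Tlr6, recognizes lipoproteins, Tlr4 recognizes lipopolysaccharide with the help of Cd14, and Tlr7 recognizes single-stranded RNA in endosomes. All Toll-like receptors in the set signal through the adaptor Myd88. In muscle, macrophages and other leukocytes are known to carry these receptors, and Toll-like receptors are also found on other cell types, muscle fibers among them.

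Levels below are log2 intensities as the authors deposited them, and changes are p21 minus control on that scale ± SE. Each array had a median of 8.39 and a lowest value of 8.13, so changes of dim probes are compressed. For this reason changes are also given on a background-subtracted scale, on which the lowest value of the table was removed on the linear scale and an offset of 16 added. Among the arrays, p21 replicate 2 stood apart, with a mean correlation of 0.9797 with the other arrays of its group, against 0.9894 to 0.9902 for the other p21 arrays and 0.99 to 0.9935 for the controls. The 4 p21 muscles lay above all 4 controls on each of the 3 Cdkn1a probes, with changes of 0.99 ± 0.10, 1.21 ± 0.11 and 1.43 ± 0.12. Whether they read the plasmid transcript or the muscle's own was not tested. In limma, 945 of all probes (3.68%) rose and 1119 (4.35%) fell at adjusted p 0.05, 8.03% in either direction, and with the replicate number as a block 1559 rose and 1627 fell.

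Of the 10 receptor genes, 9 rose in p21 muscles and 0 fell, each gene taken by its brightest probe (limma, adjusted p under 0.05). Among all named genes 4.24% rose at that threshold and 4.79% fell. The receptor genes were chosen with earlier results of these data known, so the shares of all genes give a scale and are no test of the set. At an unadjusted p under 0.05, all 10 were higher and 0 lower, where 11.3% of all named genes were higher and 13.3% lower. The median change was 0.79, against −0.004 over all genes. In 8 of the 10 genes the lowest p21 muscle lay above the highest control, as in 8.22% of all genes, and in 0 of the 10 the reverse held, as in 10.3% of all genes. The exceptions were Fcgr1 and Cd14, in which the groups overlapped. By probes, 10 of 13 rose and 3 did not pass, and the groups were apart in the higher direction in 9 (7.41% of all probes). The brightest probe of all 10 genes lay above the median probe of the table. In whole muscle, more cells that carry a receptor and more of its RNA per cell cannot be told apart.

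**Figure D1:**
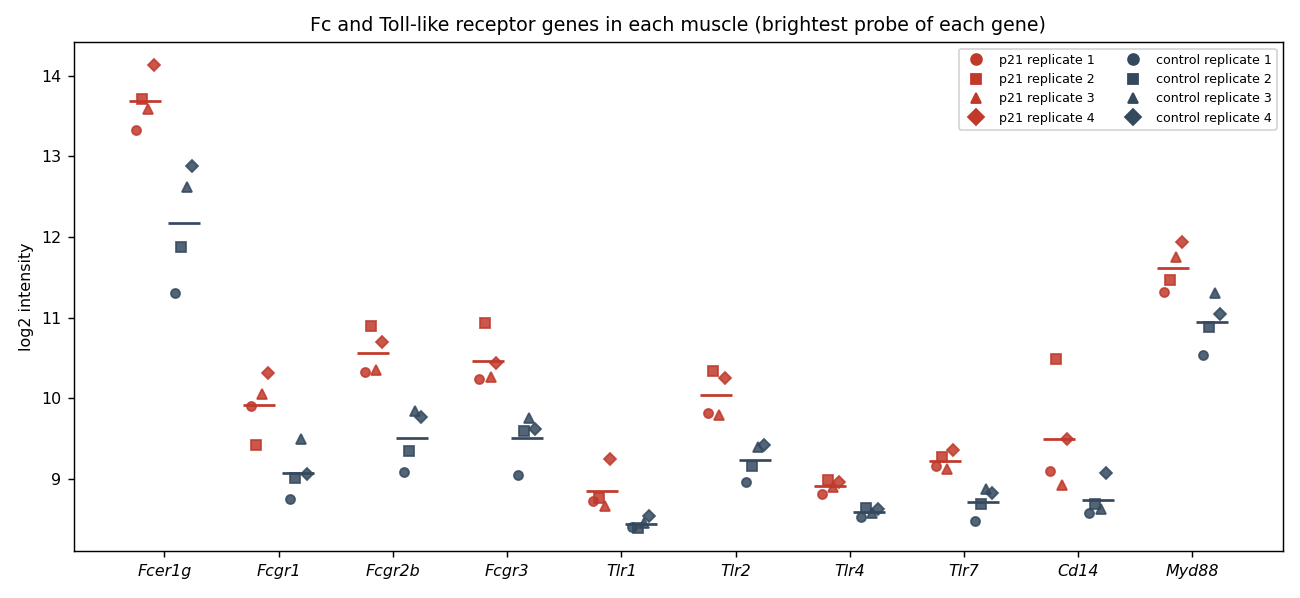
Log2 intensity (vertical axis) of the brightest probe of each of the 10 genes in the 4 p21 muscles (red, left of each pair) and the 4 control muscles (dark, right), with a bar at each group mean and 1 symbol per replicate number. The groups are apart in 8 genes and overlap in Fcgr1 and Cd14, and p21 replicate 2 (square) is the lowest p21 array for Fcgr1 and the highest for Cd14.

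All 4 genes of Fc receptor chains rose. Fcer1g, the shared signaling chain, had the largest change of the 10 genes on the deposited scale and on the background-subtracted scale. It read 13.33, 13.71, 13.59 and 14.13 in p21 replicates 1 to 4, against 11.31, 11.88, 12.61 and 12.88 in control replicates 1 to 4. The control muscles spread more widely than the p21 muscles, and no control reached the lowest p21 muscle. The means were 13.69 ± 0.33 in p21 muscles and 12.17 ± 0.71 in controls (SD, n = 4 each), a change of 1.52 ± 0.29 or 2.87-fold (limma adjusted p = 0.016).

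Fcgr1, the high-affinity receptor for IgG, read 9.90, 9.42, 10.05 and 10.31 in p21 replicates 1 to 4, against 8.75, 9.004, 9.49 and 9.05 in control replicates 1 to 4. The groups overlapped through a single pair, p21 replicate 2 lying below control replicate 3. The change was 0.85 ± 0.18 or 1.80-fold (limma adjusted p = 0.0219), and 1.01 without p21 replicate 2.

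Fcgr3, an activating low-affinity receptor, read 10.24, 10.93, 10.26 and 10.43 in p21 replicates 1 to 4, against 9.05, 9.59, 9.76 and 9.62 in control replicates 1 to 4. Here p21 replicate 2 was the highest array and control replicate 1 the lowest, with no overlap. The change was 0.96 ± 0.17 or 1.95-fold (limma adjusted p = 0.0134).

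Fcgr2b, the inhibitory receptor, has 3 probes. The brightest read 10.32, 10.89, 10.35 and 10.69 in p21 replicates 1 to 4, against 9.08, 9.34, 9.85 and 9.76 in control replicates 1 to 4. Every p21 muscle was above every control, and the change was 1.06 ± 0.17 or 2.08-fold (limma adjusted p = 0.0106). A second probe rose by 0.53 ± 0.12 (limma adjusted p = 0.0242), again without overlap. The third probe read 8.33 to 8.38 in p21 muscles and 8.32 to 8.41 in controls, with a mean below the median of the table and a change of 0.01 ± 0.03 (limma adjusted p = 0.936). With the mean of the 3 probes in place of the brightest, the change of Fcgr2b was 0.53.

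The inhibitory and the activating low-affinity receptor both rose, and their difference was tested. The difference Fcgr2b minus Fcgr3 within each array was 0.08, −0.04, 0.09 and 0.26 in p21 replicates 1 to 4, against 0.03, −0.25, 0.09 and 0.14 in control replicates 1 to 4. The groups overlapped, and the difference changed by 0.10 (exact two-sided permutation test over 70 regroupings, p = 0.457, where the smallest possible is 0.0286). With the mean of all probes of each gene it turned to −0.43, at the smallest possible p of 0.0286. That mean takes in the dimmer Fcgr2b probes, 1 of them below the median of the table with a change of 0.01. Fcgr3 has 1 probe, so the turn does not show that Fcgr3 rose more. A p above the threshold does not show that the receptors changed alike. The mouse genes Fcgr2b and Fcgr3 are closely related in the part that binds antibody, and whether their probes tell them apart was not tested.

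Promoter sequences from RefSeq (GRCm38.p6) were searched for 7 of the 10 genes, in 9 windows of 250 bases before to 50 after a start site. Tlr4, Tlr7 and Cd14 were not part of the search, which does not show that the source lacks their promoters. The windows were searched on both strands for GAGGAA, a core letter string of sites for PU.1, the transcription factor of myeloid cells. They were also searched for TTCNNNGAA, the letters of a STAT site (GAS). GAGGAA or its reverse complement stood in a window of Fcgr1, Fcgr3 and Tlr1, and was present in 28.3% of the 32851 promoters searched. TTCNNNGAA stood in a window of Fcgr1, Tlr1 and Myd88, and in 8.3% of all promoters. Shown are the stretches before the start sites of the activating receptors Fcgr1 and Fcgr3 and of Tlr1 that hold these letters, in capitals, 5′ to 3′ on the minus strand, at chr3:96294000-96294089, chr1:171059395-171059454 and chr5:64933559-64933608.
Fcgr1: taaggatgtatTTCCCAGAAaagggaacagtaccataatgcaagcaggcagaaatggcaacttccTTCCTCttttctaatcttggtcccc
Fcgr3: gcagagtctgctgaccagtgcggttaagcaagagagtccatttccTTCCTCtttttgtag
Tlr1: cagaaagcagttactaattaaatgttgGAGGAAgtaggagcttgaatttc
Fcgr1 and Fcgr3 share the unbroken string TTCCTTCCTCTTTT, which spans the PU.1 letters and was noticed after the sequences were read. That string is the longest that their windows share, so some such string was bound to be found. It stood in 5 of the 32851 promoters searched, those of Fcgr1 and Fcgr3 included. A match describes letters and is not a binding site.

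Fcgr2b, Fcgr3 and Fcer1g lie near each other on chromosome 1 in the RefSeq gene table of that assembly. From Fcgr2b to Fcer1g it lists 11 protein-coding genes, of which 8 are not among the 10 receptor genes. Of these 8, 4 were matched to the array by name. None of the 4 rose in limma, and Sdhc, a subunit of respiratory complex II, fell by 0.36 ± 0.08 on the log2 scale (limma adjusted p = 0.0257). Fcgr4, another activating receptor for IgG, read 13.13, 11.93, 13.27 and 13.72 in p21 replicates 1 to 4, against 11.42, 11.81, 12.66 and 12.21 in control replicates 1 to 4. Its change of 0.99 ± 0.34 did not pass (limma adjusted p = 0.1), and as in Fcgr1 the lowest p21 array was replicate 2, which lay within the control range. The 2 genes left, Nr1i3 and Apoa2, had changes of −0.003 and 0.02.

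All 4 genes of Toll-like receptors rose, each with every p21 muscle above every control. Tlr2 had the largest change of the 4. It read 9.81, 10.33, 9.78 and 10.25 in p21 replicates 1 to 4, against 8.95, 9.16, 9.39 and 9.42 in control replicates 1 to 4. The p21 arrays fell into a higher pair, replicates 2 and 4, and a lower pair, replicates 1 and 3. The change was 0.81 ± 0.14 or 1.76-fold (limma adjusted p = 0.0124).

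Tlr1, which pairs with Tlr2, was dimmer. It read 8.72, 8.76, 8.66 and 9.24 in p21 replicates 1 to 4, against 8.40, 8.38, 8.45 and 8.53 in control replicates 1 to 4. The controls lay close to the median of the table, and p21 replicate 4 was well above the other p21 arrays. The change was 0.40 ± 0.11 or 1.32-fold (limma adjusted p = 0.0414), and without p21 replicate 4 it was 0.27 and did not pass. It also did not pass with any of the 4 control arrays left out.

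Tlr7, the endosomal RNA sensor, read 9.15, 9.27, 9.12 and 9.36 in p21 replicates 1 to 4, against 8.48, 8.69, 8.88 and 8.82 in control replicates 1 to 4. The p21 arrays lay closer together than the controls, of which replicate 1 was the lowest. The change was 0.51 ± 0.09 or 1.42-fold (limma adjusted p = 0.012).

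Tlr4, the lipopolysaccharide receptor, has 2 probes. The brighter read 8.81, 8.98, 8.89 and 8.96 in p21 replicates 1 to 4, against 8.53, 8.63, 8.57 and 8.62 in control replicates 1 to 4. Both groups were tight, and the change of 0.32 ± 0.05 or 1.25-fold had the smallest adjusted p of the 10 genes (limma adjusted p = 0.00973). The other probe read 8.25 to 8.27 in p21 muscles and 8.25 to 8.31 in controls, below the median of the table, and did not pass (change −0.02 ± 0.02, limma adjusted p = 0.587).

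Cd14, which hands lipopolysaccharide to Tlr4, was the gene that did not pass. It read 9.10, 10.48, 8.91 and 9.49 in p21 replicates 1 to 4, against 8.57, 8.69, 8.63 and 9.07 in control replicates 1 to 4. The p21 mean rested largely on replicate 2, and p21 replicate 3 lay below control replicate 4. The change was 0.76 ± 0.27 (limma adjusted p = 0.109), and 0.43 without p21 replicate 2. With the replicate number as a block, Cd14 passed (limma adjusted p = 0.0335).

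Myd88, the shared adaptor, read 11.32, 11.46, 11.76 and 11.94 in p21 replicates 1 to 4, against 10.53, 10.88, 11.31 and 11.05 in control replicates 1 to 4. The groups were only just apart, with p21 replicate 1 and control replicate 3 almost level. The change was 0.68 ± 0.17 or 1.60-fold (limma adjusted p = 0.0353). It did not pass without p21 replicate 3 or 4, or without control replicate 1, 2 or 4.

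The order of the changes depended on the scale. On the deposited scale the 4 Fc receptor genes had a median change of 1.01 (0.85 to 1.52) and the 4 Toll-like receptor genes of 0.46 (0.32 to 0.81). On the background-subtracted scale the medians were 1.42 (1.33 to 1.58) and 1.16 (0.85 to 1.24). Tlr1, at 0.40 as deposited, changed by 1.19 ± 0.26 on that scale, Tlr7 by 1.13 ± 0.22 and Tlr4 by 0.85 ± 0.14, while the bright genes Fcer1g and Myd88 moved little, to 1.58 ± 0.30 and 0.76 ± 0.19. Myd88 had the smallest change of the 10 on the background-subtracted scale and Tlr4 on the deposited scale. The same 9 genes passed on both scales. No test of a difference between the receptor classes was made.

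**Figure D2:**
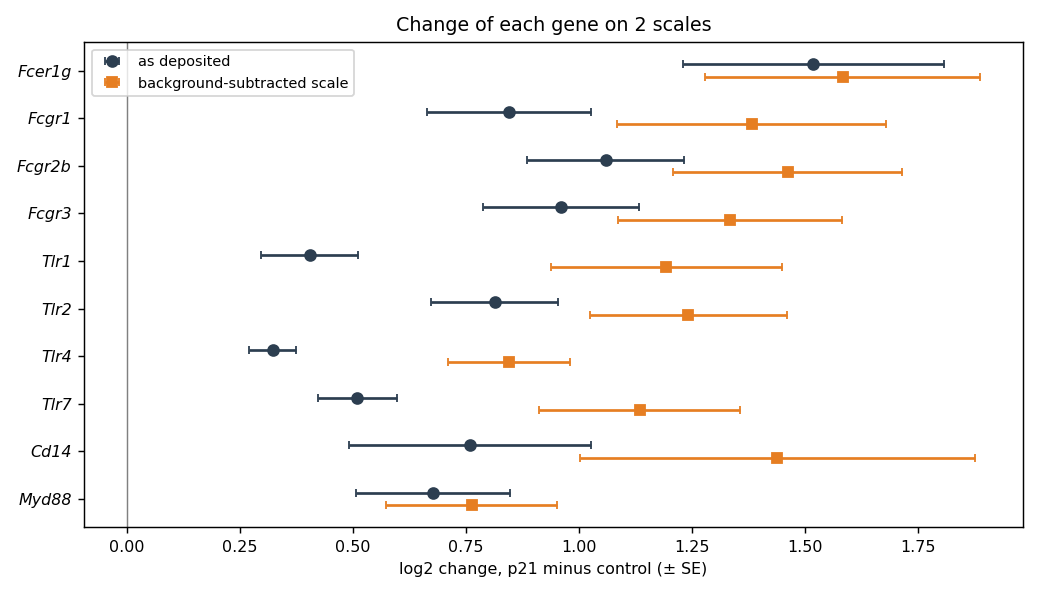
Change of each gene, p21 minus control in log2 units (horizontal axis, bars ± SE), by its brightest probe as deposited (circles) and on the background-subtracted scale (squares). The Toll-like receptor genes move from 0.32 to 0.81 as deposited to 0.85 to 1.24 after subtraction, while Fcer1g and Myd88 move little.

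Within each group the genes did not all rank the arrays alike. Among the controls, replicate 1 was the lowest array for 9 of the 10 genes, and replicates 3 and 4 were the highest for 5 and 4. Among the p21 muscles, replicate 2 was the highest for 5 genes and replicate 4 for the other 5. Replicate 2 led for Fcgr2b, Fcgr3, Tlr2, Tlr4 and Cd14, and replicate 4 for Fcer1g, Fcgr1, Tlr1, Tlr7 and Myd88. For Fcgr1 replicate 2 was the lowest p21 array.

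The calls leaned on p21 replicate 4 more than on any other array. Without it only Tlr4 passed of the 10 genes, although the changes stayed between 0.27 and 1.37, and limma called 159 probes of the whole table against 2064. Without control replicate 2 the number was 5, with Fcer1g, Fcgr1, Tlr1 and Myd88 lost. Without control replicate 1 it was 6, with Fcgr1, Tlr1 and Myd88 lost. With any of the other arrays left out 7 to 9 genes passed, and without p21 replicate 2, the array that stood apart, all 9 did. Tlr4 passed with every array left out, and no change turned negative. With all arrays but robust eBayes, Fcer1g, Fcgr1 and Tlr1 did not pass (limma adjusted p of 0.0598, 0.06 and 0.0764).

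**Figure D3:**
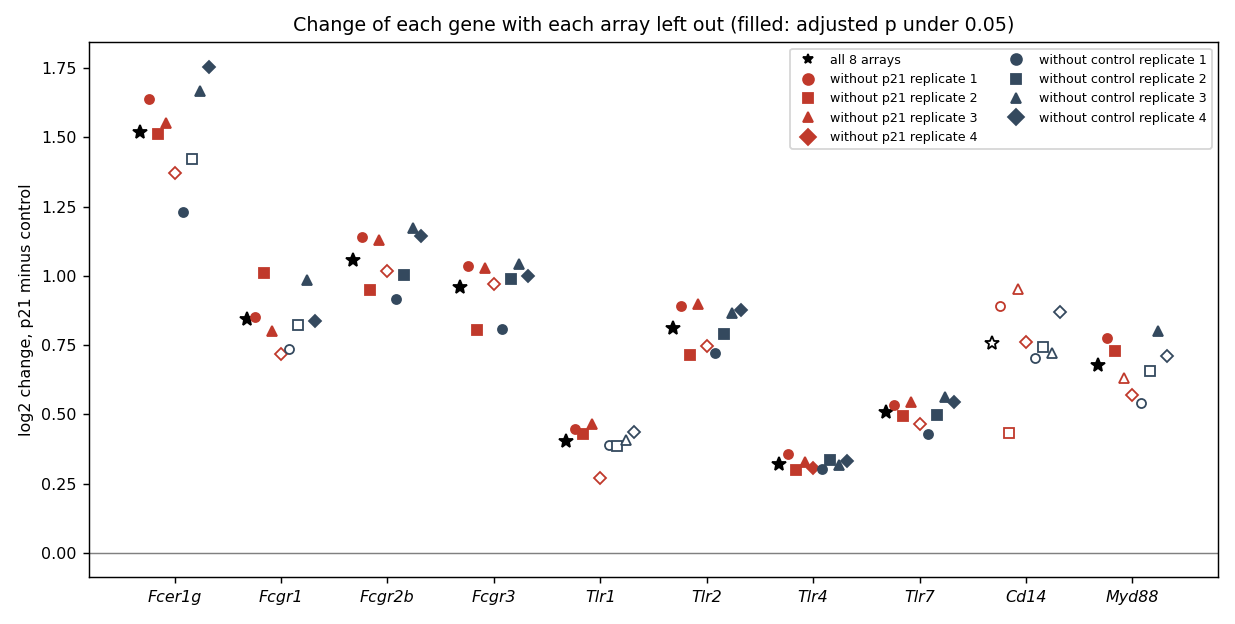
Change of each gene, p21 minus control in log2 units (vertical axis), with all 8 arrays (star) and with each array left out (red without a p21 array, dark without a control array). Filled symbols passed limma at adjusted p 0.05. All changes stay above 0, and without p21 replicate 4 (red diamond) only Tlr4 is filled.

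Beyond the 10 genes, 10 of 43 other measured genes of the Toll-like receptor pathway rose and 0 fell in limma (all named genes, 4.24% and 4.79%). Their median change was 0.19. At an unadjusted p under 0.05, 19 were higher and 3 lower (all named genes, 11.3% and 13.3%). With the replicate block 17 rose and 0 fell, but with eBayes without the trend 9 rose and 3 fell, and among probes brighter than the median 13 rose and 2 fell. Among the receptors 2 of 6 rose. Tlr13, a sensor of bacterial ribosomal RNA, rose by 0.78 ± 0.09 (limma adjusted p = 0.00227), and Tlr6, another partner of Tlr2, by 0.40 ± 0.09 (limma adjusted p = 0.0224). The other 4 measured receptors, Tlr3, Tlr8, Tlr11 and Tlr12, had changes of 0.04 to 0.19 as deposited and did not pass. Their probes are dim. On the background-subtracted scale Tlr8 changed by 0.82, against 0.87 for Tlr6, and Tlr3, Tlr11 and Tlr12 by 0.27 to 0.37. As deposited, Tlr8 had a limma adjusted p of 0.0573, and Tlr12 had the groups apart. Of 6 accessory proteins 4 rose. They were Unc93b1, which carries the endosomal receptors to their compartment (1.19 ± 0.22), Cd180 and its partner Ly86, relatives of Tlr4 and its cofactor (0.70 ± 0.15 and 1.18 ± 0.23), and Ly96, the cofactor that binds lipopolysaccharide beside Tlr4 (0.36 ± 0.09).

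Downstream of the receptors, none of the 4 other adaptors passed (1 at an unadjusted p under 0.05). Of 11 kinases, ligases and regulators 1 rose, where 4.24% of all named genes did. It was the kinase-like gene Irak2 (0.25 ± 0.06, limma adjusted p = 0.0403), in 1 of its 2 probes. Of the 11, 7 had changes below 0, as did 8832 of all 16593 named genes. At an unadjusted p under 0.05, 3 were lower (13.3% of all named genes), each with the groups apart (10.3%). They were Tab2 (−0.25 ± 0.08), Traf6 (−0.21 ± 0.06) and Ikbkg (−0.14 ± 0.06), which carry the signal from the receptors toward NF-kappaB. Of 6 transcription factors only Nfkb2 passed (0.16 ± 0.04). All 6 had changes above 0, as did 7761 of all 16593 named genes. At an unadjusted p under 0.05, 4 were higher (11.3% of all named genes), each with the groups apart (8.22%). Besides Nfkb2 these were Irf3 (0.36 ± 0.12), Rela (0.26 ± 0.08) and Relb (0.19 ± 0.06). Their limma adjusted p were 0.102, 0.0732 and 0.0614. Of 10 outputs of the pathway, Il1b, an inflammatory cytokine, rose by 0.65 ± 0.13 (limma adjusted p = 0.0166) and Tnfaip3, an inhibitor of the pathway, by 0.19 ± 0.05. Socs3 (0.63 ± 0.21) and Nfkbiz (0.49 ± 0.18) did not pass, with limma adjusted p of 0.0917 and 0.117, nor did Irak3 (0.32 ± 0.16). Tnf, Il6 and Nos2 had changes of 0.25, 0.04 and 0.05, and the means of Il6 and Nos2 over the 8 arrays lay below the median of the table. Without p21 replicate 4 the count of the list was 1, and without control replicates 1, 2 and 4 it was 3, 2 and 6.

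Of 32 other measured genes of Fc receptor signaling, 13 rose and 0 fell (all named genes, 4.24% and 4.79%), with a median change of 0.30. At an unadjusted p under 0.05, 23 were higher and 1 lower (all named genes, 11.3% and 13.3%). None of the other Fc receptors rose (2 higher and 1 lower at an unadjusted p under 0.05). Fcer1a and Ms4a2, the chains that join Fcer1g in the IgE receptor of mast cells, had changes of −0.04 and −0.002. Fcrls, a receptor-like relative, had a change of 0.30 ± 0.26 (limma adjusted p = 0.584). Of 4 measured genes of the other ITAM adaptor of myeloid cells and its partners, 2 rose. The adaptor Tyrobp rose by 1.41 ± 0.25 (limma adjusted p = 0.0134), and its partner Trem2 by 1.43 ± 0.40. The partners Trem1 and Sirpb1a had changes of −0.05 and 0.04 that did not pass. Trem2 read 11.70 in p21 replicate 2 and 9.37 to 9.83 in the other p21 muscles, against 8.56 to 8.81 in controls.

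Of 8 adaptors and effectors 4 rose. The adaptor Lat2 rose by 1.09 ± 0.16, the exchange factor Vav1 by 0.97 ± 0.19, the phospholipase Plcg2 by 0.61 ± 0.15 and the kinase Prkcd by 0.56 ± 0.14, while Pik3cd had a change of 0.30 ± 0.09 that did not pass (limma adjusted p = 0.0695). Of 3 measured kinases that act near the receptors Btk rose, by 0.50 ± 0.12. Among inhibitors, 4 of 5 rose. The receptors Sirpa and Lilrb4a rose by 1.35 ± 0.24 and 0.52 ± 0.06, Lilrb4a in 1 of its 2 probes. The phosphatases Ptpn6 and Inpp5d, which act below inhibitory receptors such as Fcgr2b, rose by 1.17 ± 0.25 and 0.38 ± 0.09. Of 5 subunits and regulators of the phagocyte oxidase, Cyba and Ncf4 rose by 1.25 ± 0.27 and 0.96 ± 0.16, and Rac2 (0.56 ± 0.17, limma adjusted p = 0.071) did not pass. Syk and Cybb read below the median of the table, with changes of 0.02 and 0.01. The count of the list was 2 without p21 replicate 4 and 5 without control replicate 1 or 2.

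**Figure D4:**
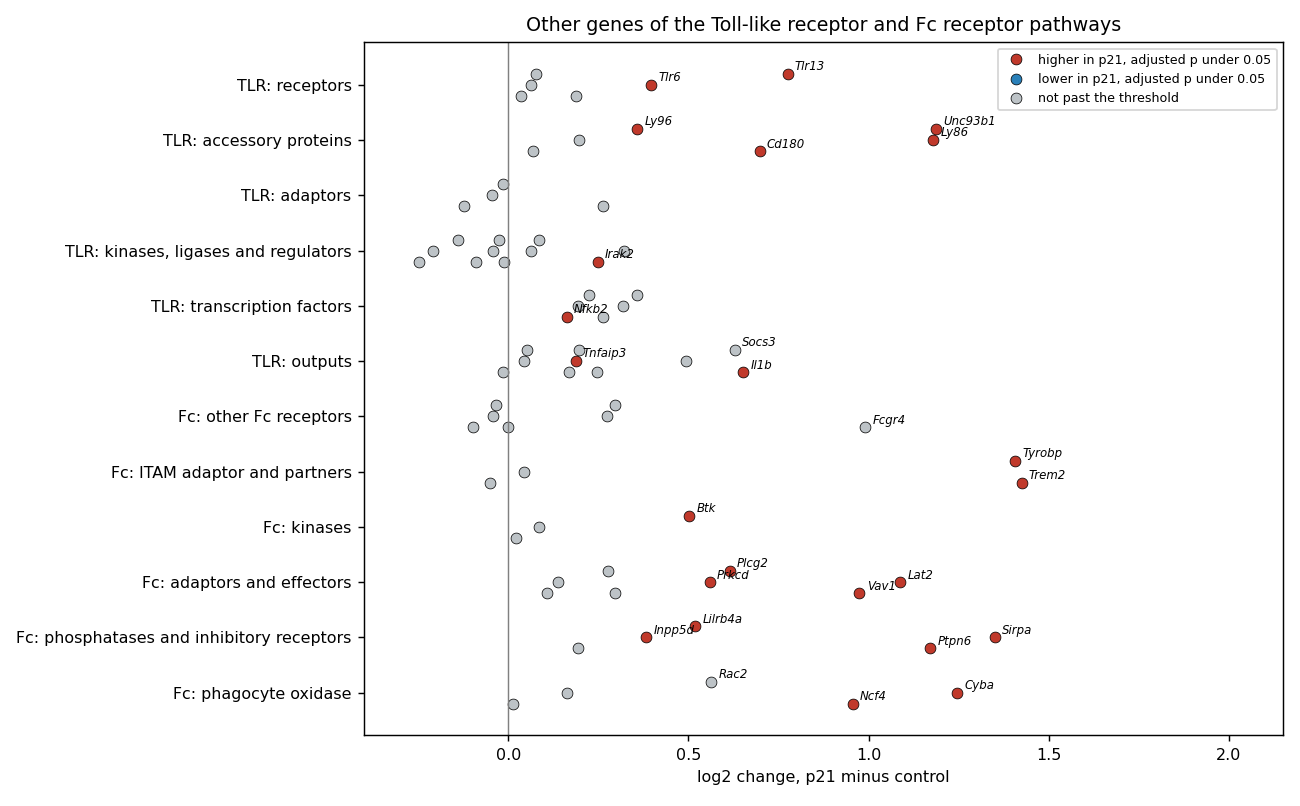
Change of each other gene of the Toll-like receptor (TLR) and Fc receptor (Fc) pathways, p21 minus control in log2 units (horizontal axis), by class (rows), with 1 point per gene at its brightest probe. Red points passed limma at adjusted p 0.05, 10 of 43 in the first list and 13 of 32 in the second, and no gene passed in the lower direction.

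Some markers of leukocytes and macrophages rose in the same muscles, and their part in the changes of the receptors was not tested. Of 7 measured macrophage markers 2 rose (4.24% of all named genes), Aif1 by 1.35 ± 0.32 and Lyz2 by 0.66 ± 0.16, each in 2 of its 3 probes. The mean level of the list was 10.37 to 10.70 in p21 muscles and 9.68 to 10.32 in controls. Adgre1 (0.85 ± 0.25, limma adjusted p = 0.0621) did not pass by its brightest probe, although 2 of its 3 probes did, and Itgam, Mrc1, Mertk and Cd163 had changes of 0.09, 0.39, 0.38 and −0.17 that did not pass. Of 3 markers of all leukocytes, Laptm5 and Coro1a rose by 1.11 ± 0.20 and 0.97 ± 0.26 and Ptprc had a change of 0.11, with list means of 11.41 to 11.81 in p21 muscles and 10.43 to 11.22 in controls.

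Neutrophils are known to carry Fcer1g, Cd14 and Tlr2 as well, and their part was not tested either. The changes of their 7 measured markers ran from −1.19 to −0.02, and 0 passed in limma. At an unadjusted p under 0.05, 3 were lower (13.3% of all named genes). The calprotectin gene S100a8 read 8.72, 9.75, 9.83 and 8.97 in p21 replicates 1 to 4, against 8.72, 12.22, 11.15 and 9.94 in control replicates 1 to 4. The mean level of the neutrophil list was 8.42 to 8.62 in p21 muscles and 8.37 to 9.61 in controls, with control replicates 2 and 3 high in S100a8. Of 4 mast cell, 6 dendritic cell and 3 B cell markers none passed in limma and none reached an unadjusted p under 0.05, and 5 of the 6 dendritic cell markers lay below the median probe. List means in p21 muscles and in controls were 8.58 to 8.74 and 8.62 to 8.88 for mast cells, 8.31 to 8.37 and 8.33 to 8.35 for dendritic cells, and 8.46 to 8.58 and 8.43 to 8.48 for B cells. Of 6 T or NK cell markers none passed and 2 were higher at an unadjusted p under 0.05 (11.3% of all named genes). Their list means were 8.75 to 9.35 in p21 muscles and 8.62 to 8.97 in controls. Of 3 monocyte markers none passed and 1 was higher at an unadjusted p under 0.05 (11.3% of all named genes). Their list means were 9.37 to 9.90 in p21 muscles and 9.20 to 9.70 in controls.

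The label of the tissue held, with 6 muscle fiber markers at list means of 14.54 to 14.75 in p21 muscles and 14.76 to 14.78 in controls, near the top of the arrays at 15.27. Of these Myh4, the fast myosin, fell (−0.44 ± 0.11). Of 4 endothelial markers Tek, the angiopoietin receptor, fell (−0.33 ± 0.09). At an unadjusted p under 0.05, 3 of the 4 were lower (13.3% of all named genes). All 4 changes were below 0, as were those of 8832 of all 16593 named genes. The list means were 9.22 to 9.28 in p21 muscles and 9.33 to 9.61 in controls. Of 4 fibroblast markers none passed and 1 was higher at an unadjusted p under 0.05 (11.3% of all named genes). Their list means were 11.57 to 12.03 in p21 muscles and 11.40 to 11.90 in controls.

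**Figure D5:**
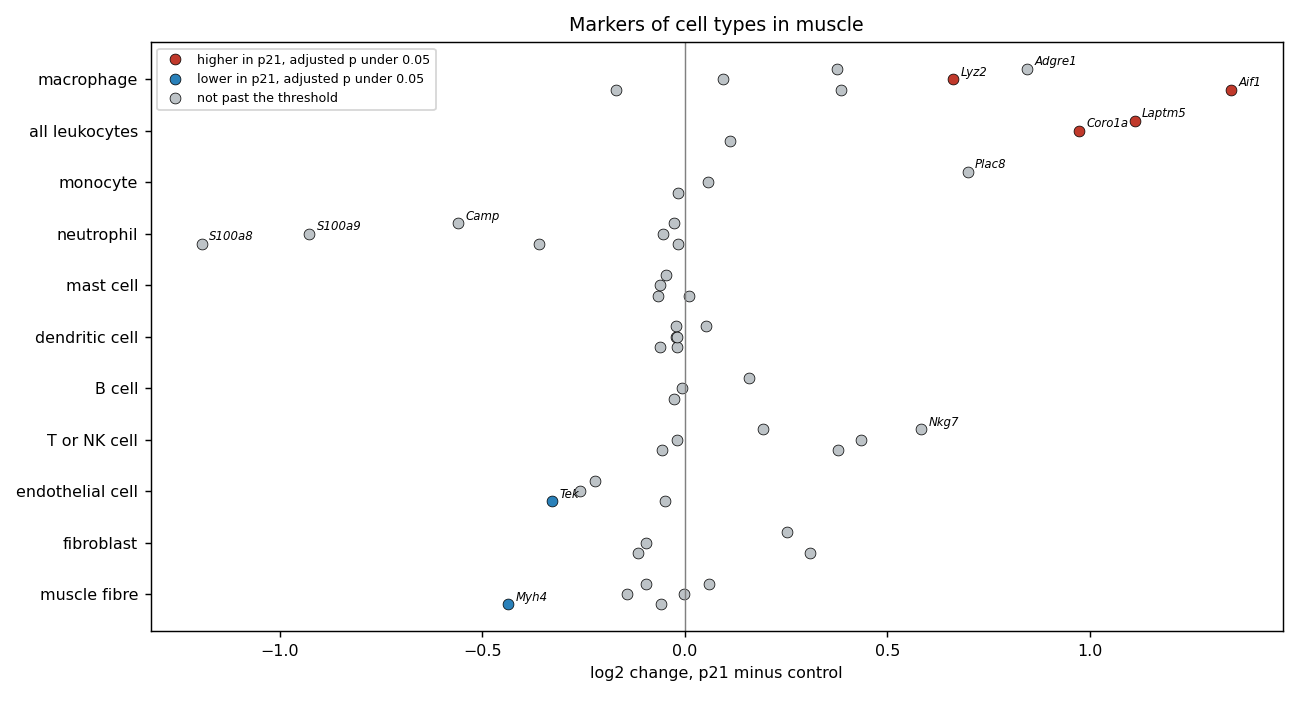
Change of each marker, p21 minus control in log2 units (horizontal axis), by cell type (rows), with 1 point per gene at its brightest probe, red where it rose and blue where it fell in limma at adjusted p 0.05. Macrophage and leukocyte markers reach 1.35 and 1.11, while the neutrophil markers lie at or below 0, down to −1.19.

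The genes whose levels over the 8 arrays ran closest to those of Fcer1g were Cd52, Aif1, Slc15a3, C1qc and Slc11a1, among 8977 named genes brighter than the median probe. Likeness was the mean absolute difference over the arrays after each gene was centred on its own mean, and it was 0.12 for Cd52, a leukocyte surface protein, and 0.17 for Aif1. It was 0.17 for Slc15a3, a peptide transporter, 0.18 for C1qc, a chain of the complement protein that binds antibody complexes, and 0.19 for Slc11a1, a metal transporter of phagosomes. The other receptor genes lay farther from Fcer1g, at 0.31 for Fcgr2b to 0.62 for Tlr4. This measure also reflects the size of a change, which is compressed in dim probes.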

How the data were processed

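The authors deposited 1 log2 intensity per probe and array. Per the labels, total RNA was amplified and labelled with biotin. How the scans were read, corrected for background and normalized is not given in the sources used here. Ranked from low to high, the arrays held the same values to within 0.00073, which means that the table came quantile normalized and that differences in total RNA were removed. Signal above a floor of 8.13 limits the precision for dim probes, as does the number of arrays. No probe was filtered.

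Probe names came from the platform annotation, with 23978 of 25697 probes under 1 symbol, 0 under several and 1719 unnamed here. The Entrez numbers of 23962 matched a RefSeq gene table, and 0 symbols changed. Names on the lists with no match, such as Cd68 and Csf1r, are not analysed here and are left out of the counts.

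The test was limma 3.58.1 under R 4.3.3 (lmFit, then eBayes with a trend on intensity) over all probes, with Benjamini-Hochberg adjustment over all of them. The rule for named genes takes every receptor gene, up to 8 called genes of smallest p and up to 4 uncalled genes of largest change per pathway list, and the 5 genes most like Fcer1g. Further genes were picked after their values were seen. Among them are Trem2, Btk, Plcg2, Prkcd, Inpp5d, Ly96 and Tnfaip3, all called. Others, not called, are Tlr3, Tlr8, Tlr12, Tab2, Traf6, Ikbkg, Rela, Relb, Tnf, Il6, Nos2, Syk and Cybb. The receptor genes and all lists were chosen with earlier results of these data known.

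Both groups are numbered 1 to 4. Deviations from the group means correlated at 0.483, 0.264, 0.212 and 0.181 between arrays of the same number, all above a set limit of 0.1. No correlation between arrays of different numbers is given here, so this does not show that the numbers mark pairs. The labels do not say so either. The calls therefore come from the fit without pairs, and the replicate block is given as an alternative. Simulated data with 25697 probes gave calls for 82% of 100 probes changed by 0.5 and 92% of 100 changed by 1, drawn from the brighter probes, with 9 false calls among 183. Alternatives were other scales, variance models, thresholds, a filter on dim probes, the mean of a gene's probes, the block and each array left out.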

Additional observations from a re-analysis of the deposited data

Results flagged for a closer look

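Among the genes taken by the rule for named genes, 84 groups of 4 arrays were examined. Other genes named here, such as most cell type markers, were not. The search was for an array far from the other 3 of its group. Distance was measured as the gap to its nearest neighbour over the range of the group, with Dixon's critical value as the limit. Chance sets about 1 in 20 such groups apart, and 4 were found here, none of them in the 10 receptor genes. Il1b was higher in p21 replicate 2, at 9.60 against 9.02 for the next p21 array (ratio 0.831). Ly86 was higher in p21 replicate 4, at 12.15 against 11.51 (ratio 0.848), and so was Rac2, at 10.16 against 9.41 (ratio 0.831). Nfkb2 was higher in control replicate 2, at 8.44 against 8.38 (ratio 0.916).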

How the results depend on the processing

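Limma called 9 of the 10 receptor genes, 10 of the Toll-like receptor pathway list, 13 of the Fc receptor list and 2064 probes in all. With an array left out these counts ranged from 1 to 9, 1 to 11, 2 to 15 and 159 to 2162, the lowest without p21 replicate 4. The replicate block gave 3186 probes and 17 pathway genes, and changed no call of a receptor gene other than Cd14. A threshold of adjusted p 0.01 left 133 probes, 1 receptor gene, 1 pathway gene and 2 of the Fc list, and a threshold of 0.1 gave 3490 probes and 17 pathway genes, 15 higher and 2 lower, where the block's 17 were all higher. EBayes without the trend gave 8 of the Fc list and 9 higher and 3 lower pathway genes, and lost Tlr1 and Myd88 (adjusted p 0.0789 and 0.0629). Robust eBayes lost Fcer1g, Fcgr1 and Tlr1 (0.0598, 0.06 and 0.0764). Probes brighter than the median gave 13 higher and 2 lower pathway genes and 13 higher and 1 lower of the Fc list, and the mean of a gene's probes lost Tlr1 (0.0528). The causes were not tested. No receptor gene turned negative under any of the 18 alternatives tried for it. The within-array difference Fcgr2b minus Fcgr3 changed by 0.014 to 0.14 with an array left out. It changed by −0.43 with the mean of all probes of each gene, which takes in the dimmer Fcgr2b probes (exact permutation p = 0.0286). Paired by replicate number its change was 0.10 (exact permutation p = 0.125, the smallest that 4 pairs allow).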
